A study of Mus musculus with 10 samples.

Results

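Ribosome biogenesis was followed through 42 nucleolar and ribosomal RNA processing genes, a fixed list of known Myc targets, in mouse cerebellum and medulloblastoma. The genes were picked by symbol, and the rule uses no measured value, though the list was drawn up with earlier results of these data known. All 42 were present among the 39769 gene symbols of the deposited table, and all 42 passed the filter on low counts that left 15617 genes for testing. Every library held at least 63 counts of each of them, the lowest being Npm3, and at most 7572, reached by Ncl.

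The study read poly-A RNA of 10 libraries in 3 groups, all of them carrying 1 mutant copy of Ptch (Ptch+/-), the receptor that restrains Sonic hedgehog signalling. NKP denotes 3 medulloblastoma libraries of genotype Nestin-Cre Kmt2dfl/+ Ptch+/-, all at 4 months. AKP denotes 3 medulloblastoma libraries of genotype AtohI-Cre Kmt2dfl/+ Ptch+/-, the mice being 2 months old for AKP 1 and AKP 2 and 4 months old for AKP 3. Ptch denotes 4 cerebellum libraries of Ptch+/- mice, a genotype label that names no Cre or Kmt2d allele, aged 4 months for Ptch 1 and Ptch 2 and 2 months for Ptch 3 and Ptch 4. Kmt2d encodes a histone methyltransferase. The labels call the tumour groups KO, but their genotype leaves 1 Kmt2d copy intact. Nestin-Cre acts in neural progenitors broadly and Atoh1-Cre in granule neuron precursors. The series describes the tumour samples as cerebella bearing a tumour, so each can hold normal cerebellum as well. Whether each library came from a different mouse is not stated in the labels, so a p-value reflects library-to-library spread, which may be technical.

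Ribosomes are built in the nucleolus. RNA polymerase I (Pol I) transcribes the ribosomal RNA precursor there, small nucleolar ribonucleoproteins (snoRNPs) guide its ribose methylation (box C/D) and pseudouridylation (box H/ACA), and separate assembly factors fold and cut it into the small and the large subunit. Myc proteins activate many of these genes, and N-Myc, encoded by Mycn, acts downstream of Sonic hedgehog in dividing granule neuron precursors, the cells in which this kind of medulloblastoma arises.

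Myc proteins bind the E-box CACGTG, so the promoters were read for it. A promoter entry of the RefSeq annotation (GRCm38.p6, 250 bases before to 50 after the gene start) existed for 35 of the 42 genes, and 3 genes had more than 1 start. CACGTG, which reads the same on both strands, stood in 8 of these 35 promoters (22.9%), against 11.1% of 12288 tested genes with an entry and 17 of 85 other ribosome biogenesis genes. In 6 of the 8 it lay within the 50 bases after the start. The 8 windows are shown 5′ to 3′ on the gene's strand with the E-box in capitals, because Myc proteins are known to bind this motif.
Mybbp1a, chr11:72441355-72441376, plus strand: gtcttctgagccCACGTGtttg
Nol11, chr11:107189407-107189436, minus strand: cttgagcgttcgCACGTGgtctagactcca
Nop2, chr6:125131811-125131840, plus strand: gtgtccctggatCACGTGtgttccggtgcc
Pes1, chr11:3963965-3963994, plus strand: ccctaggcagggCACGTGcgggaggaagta
Pno1, chr11:17211540-17211564, minus strand: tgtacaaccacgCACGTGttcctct
Utp20, chr10:88826765-88826789, minus strand: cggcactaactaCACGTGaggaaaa
Utp4, chr8:106893643-106893672, plus strand: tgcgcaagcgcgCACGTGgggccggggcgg
Wdr43, chr17:71616220-71616249, plus strand: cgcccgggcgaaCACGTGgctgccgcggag

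A match of 6 letters is a description of the sequence and not a bound site. Other motifs, searched on both strands, also occurred at shares above or below those of tested genes. The GC box GGGCGG stood in 77.1% of the 35 promoters, against 66.0% of tested genes. The ETS core CCGGAAG stood in 31.4%, against 17.7%. The CCAAT box stood in 28.6%, against 42.7%. The genes with the largest NKP differences described below were Npm3, Gar1, Nop58 and Fbl. Fbl had no promoter entry, and the windows of the other 3 held no CACGTG. The 120 bases upstream of these 3 genes are shown because the results turn on them, with GGGCGG and CTTCCGG (the reverse complement of the ETS core) in capitals.
Nop58, chr1:59684841-59684960, plus strand: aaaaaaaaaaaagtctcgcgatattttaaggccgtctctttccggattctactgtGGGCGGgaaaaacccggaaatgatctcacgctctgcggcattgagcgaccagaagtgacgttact
Gar1, chr3:129831408-129831527, minus strand: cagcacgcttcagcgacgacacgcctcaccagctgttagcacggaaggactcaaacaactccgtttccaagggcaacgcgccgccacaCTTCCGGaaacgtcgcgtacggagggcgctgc
Npm3, chr19:45749566-45749685, minus strand: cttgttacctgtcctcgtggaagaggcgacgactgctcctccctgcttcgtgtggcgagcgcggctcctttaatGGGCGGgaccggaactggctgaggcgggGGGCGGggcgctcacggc

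Library totals ran from 12300430 to 19348991 counts. Levels are given as CPM, the count of a gene scaled to a common library size. The floxed gene Kmt2d was at 33.2, 46.9 and 58.0 CPM in the libraries labelled NKP 1 to 3, at 34.3, 41.3 and 43.6 CPM in AKP 1 to 3, and at 68.4, 57.3, 56.3 and 52.6 CPM in Ptch 1 to 4. The library labelled NKP 3 thus lay inside the Ptch range, and the difference passed the test neither in NKP (adjusted p = 0.307) nor in AKP (adjusted p = 0.0650, edgeR). In 4 libraries, NKP 3, AKP 3, Ptch 1 and Ptch 3, the summed level of 4 Y-linked genes did not match the labelled sex. The 4-month controls, Ptch 1 and Ptch 2, held 0.385 and 0.465 CPM of these transcripts, and the other 8 libraries at least 55.1 CPM. Markers of dividing granule neuron precursors define this tumour type. As sums, they were not higher in any library labelled medulloblastoma than in Ptch 1 or Ptch 2. For the mitosis markers, AKP 2 and AKP 3 exceeded Ptch 3 and Ptch 4, while NKP 1 to 3 and AKP 1 lay below every Ptch library. The 10 mitosis markers summed to 6.79, 5.09 and 50.1 CPM in NKP 1 to 3, 6.49, 235 and 183 CPM in AKP 1 to 3, and 366, 369, 119 and 111 CPM in Ptch 1 to 4. The 8 precursor markers summed to 987 to 1012 CPM in NKP, 977 to 1047 CPM in AKP and 1163 to 1353 CPM in Ptch. Most of each sum was Zic1 and Zic2, which differed by -0.03 and 0.09 on the log2 scale in NKP against Ptch. The rest ran from -0.26 (Boc) to -2.99 (Atoh1). The median log2 deviation of the 8 markers from their means over libraries weighs each gene alike. It was lowest for NKP 2 (-1.31), AKP 1 (-1.26) and NKP 1 (-1.21), then NKP 3 (-0.15). AKP 2 (0.46) and AKP 3 (0.38) lay above Ptch 3 (0.26) and Ptch 4 (0.21). Ptch 1 (1.18) and Ptch 2 (1.37) were highest. Atoh1, which defines these precursors, was at 0 in NKP 1 and AKP 1, and Aurkb, a mitosis marker, in NKP 2. Markers of mature granule and Purkinje neurons were present in all 10 libraries.

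Most of the 42 genes varied moderately between libraries. The highest library exceeded the lowest by a median ratio of 1.59, against 1.67 over all tested genes. The ratio ran from 1.18 for Bysl, a small subunit maturation factor, to 4.01 for Npm3, a nucleoplasmin-family histone chaperone. It reached 2 for 7 of the 42 genes, namely Nop58, Fbl, Nhp2, Gar1, Npm3, Utp15 and Heatr1, against 34.0% of all tested genes. Per kilobase of the principal annotated transcript, Npm1 stood highest at 145 CPM per kb on average and Utp20, a long scaffold protein of the small subunit processome, lowest at 1.62 CPM per kb.

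The peaks and troughs were shared by the same libraries. For 26 of the 42 genes (61.9%) the highest library was Ptch 1 or Ptch 2, against 25.7% of all tested genes. The lowest library was NKP 1, NKP 2 or AKP 1, libraries singled out after their values were seen, for 34 genes (81.0%), against 33.4% of all tested genes. AKP 2 was the highest library for 7 genes, Nhp2, Nop10, Npm1, Npm3, Wdr12, Wdr74 and Nop16. The same 3 troughs and the same 2 peaks appear in the mitosis markers, and their part in the results below was not tested.

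**Figure D1:**
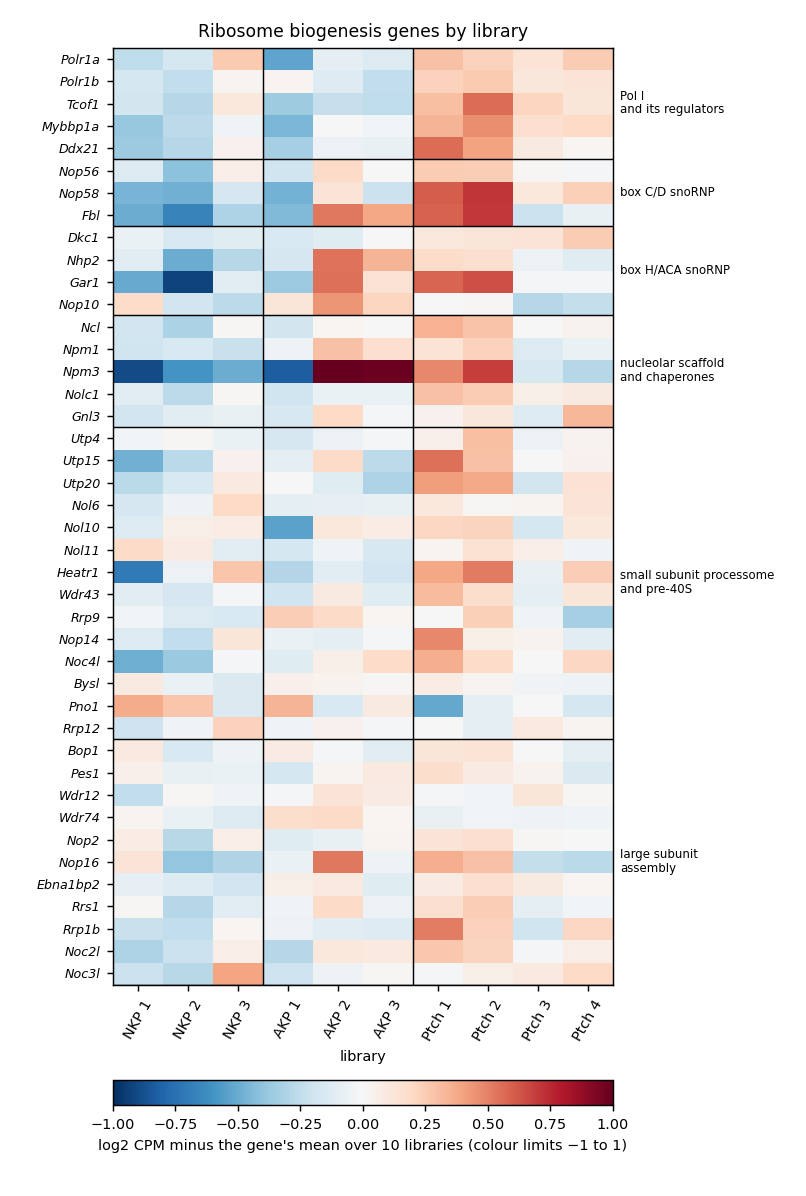
Each cell gives log2 CPM of 1 gene (rows, grouped by role) in 1 library (columns) minus the gene's mean over the 10 libraries, with colours limited to 1 log2 unit either way. Ptch 1 and Ptch 2 are the reddest columns, and NKP 1, NKP 2 and AKP 1 the bluest, while Npm3 is at the red end of the scale in AKP 2 and AKP 3.

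The libraries labelled NKP were compared with those labelled Ptch, the comparison by which the study asks about heterozygous Kmt2d loss in medulloblastoma. Most of the 42 genes lay lower in NKP, with a median log2 fold change of -0.24, against 0.01 over all tested genes, and 38 of 42 (90.5%) lay below 0, against 47.7% of all tested genes. None passed edgeR's quasi-likelihood test at a Benjamini-Hochberg adjusted p below 0.05, and neither did any of the 15617 genes (0%). The smallest adjusted p among the 42 was 0.218. At an unadjusted p below 0.05, 16 genes lay lower (38.1%), against 10.2% of all tested genes, and 1 lay higher, against 6.79%. All NKP libraries lay below all Ptch libraries for 12 genes (28.6%), against 8.95% of all tested genes. DESeq2 called 3 of the 42 lower, Mybbp1a, Nop58 and Fbl (7.14%), against 2.19% of all genes with an adjusted p.

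In bulk tissue, fewer cells of a type and less RNA per cell cannot be told apart, which touches each value that follows. The box C/D snoRNP genes had the lowest median, -0.79. Nop58, a core protein of these particles, stood at 20.1, 19.95 and 24.8 CPM in NKP 1 to 3, against 42.4, 45.7, 29.8 and 32.8 CPM in Ptch 1 to 4. All NKP libraries lay below all Ptch libraries, for a log2 fold change of -0.80 ± 0.18 (SE, edgeR adjusted p = 0.218). Fbl encodes fibrillarin, the methyltransferase of these particles. It stood at 46.3, 41.1 and 52.9 CPM in NKP 1 to 3, against 98.7, 107, 56.3 and 62.2 CPM in Ptch 1 to 4. The groups did not overlap, but Ptch 3 lay just above NKP 3, and the log2 fold change was -0.79 ± 0.29 (edgeR adjusted p = 0.237). Nop56, the partner of Nop58, differed by -0.28 ± 0.13 on the log2 scale with overlapping groups.

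The box H/ACA snoRNP genes had a median of -0.30. Gar1, a core protein of the pseudouridine synthase particle, stood at 13.2, 9.89 and 17.5 CPM in NKP 1 to 3, against 28.1, 29.2, 18.6 and 18.6 CPM in Ptch 1 to 4. NKP 3 lay just below Ptch 3 and Ptch 4, and the log2 fold change was -0.80 ± 0.26 (edgeR adjusted p = 0.219). Dkc1, the pseudouridine synthase itself, stood at 32.1, 30.2 and 30.9 CPM in NKP 1 to 3, against 36.1, 36.6, 36.6 and 40.1 CPM in Ptch 1 to 4. Its difference was small and even, at -0.27 ± 0.09 on the log2 scale (edgeR adjusted p = 0.218). Nop10, the smallest protein of the particle, went the other way by 0.04 ± 0.13, with overlapping groups. Its sign was not fixed: without NKP 1 it was -0.10.

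The 5 genes of Pol I and its regulators had a median of -0.42, with all 5 below 0. Of 13 other Pol I genes, 10 lay below 0, with a median of -0.22. Mybbp1a, a nucleolar protein that binds Myb and takes part in Pol I transcription, stood at 47.5, 51.6 and 60.01 CPM in NKP 1 to 3, against 78.0, 85.1, 69.3 and 70.8 CPM in Ptch 1 to 4. The groups stood clearly apart, for a log2 fold change of -0.51 ± 0.13 (edgeR adjusted p = 0.218). Tcof1 encodes treacle, which holds Pol I and its cofactors in the nucleolus. It stood at 19.4, 18.1 and 23.7 CPM in NKP 1 to 3, against 27.1, 32.4, 25.6 and 24.0 CPM in Ptch 1 to 4. NKP 3 and Ptch 4 nearly met, and the log2 fold change was -0.42 ± 0.13 (edgeR adjusted p = 0.218).

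The nucleolar scaffold and chaperone genes had a median of -0.29. Ncl, which encodes nucleolin, stood at 281, 258 and 324 CPM in NKP 1 to 3, against 408, 391, 321 and 328 CPM in Ptch 1 to 4. NKP 3 lay above Ptch 3, so the groups overlapped at a log2 fold change of -0.33 ± 0.11. Nolc1, a chaperone of snoRNPs, stood at 55.8, 49.9 and 60.5 CPM in NKP 1 to 3, against 73.3, 71.3, 62.4 and 63.6 CPM in Ptch 1 to 4. The groups did not overlap, at -0.29 ± 0.10 on the log2 scale. Both had an edgeR adjusted p of 0.218 to 0.219. Npm3, named here after its values were seen, had the largest difference of the 42 in size and the largest error. It stood at 5.15, 6.36 and 6.79 CPM in NKP 1 to 3, against 13.4, 15.5, 8.602 and 7.86 CPM in Ptch 1 to 4. The groups did not overlap, at a log2 fold change of -0.89 ± 0.42 (edgeR adjusted p = 0.315).

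The subunit assembly genes differed least. The 14 small subunit genes had a median of -0.10 and the 11 large subunit genes one of -0.12, all 11 of the large subunit genes lying below 0. Among them, Noc4l of the small subunit processome had the largest difference, at -0.46 ± 0.15 on the log2 scale, with 11.0, 11.9 and 15.3 CPM in NKP 1 to 3, against 19.9, 17.5, 15.4 and 17.9 CPM in Ptch 1 to 4. NKP 3 and Ptch 3 were nearly equal. Utp15, another protein of that complex, differed by -0.45 ± 0.17 and Ebna1bp2, a large subunit factor, by -0.23 ± 0.08. Noc2l, whose yeast counterpart pairs with that of Noc3l in large subunit assembly, differed by -0.28 ± 0.12.

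Pno1, a small subunit factor that binds beside the last cleavage site of its RNA, was the 1 gene past an unadjusted p of 0.05 in the other direction. It stood at 38.7, 36.3 and 27.1 CPM in NKP 1 to 3, against 21.0, 28.1, 29.8 and 26.5 CPM in Ptch 1 to 4. NKP 3 lay inside the Ptch range, at a log2 fold change of 0.36 ± 0.16 (edgeR adjusted p = 0.265). The values of Nol11 and Rrp12, also small subunit factors, were 0.00 ± 0.10 and 0.00 ± 0.11, with a sign that changed between settings.

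These counts changed with the libraries entered. All NKP libraries were 4 months old, and with only the 4-month libraries in the fit, edgeR called 14 of the 42 genes (33.3%), all lower in NKP, against 15.6% of all genes tested in that fit. The 14 were Tcof1, Mybbp1a, Ddx21, Nop58, Fbl, Nhp2, Gar1, Ncl, Npm1, Npm3, Nolc1, Utp15, Nop16 and Noc2l. The controls of that fit were Ptch 1 and Ptch 2, the libraries with the fewest Y-linked transcripts and the most mitosis markers. That fit also left out AKP 1 and AKP 2, so the choice of Ptch libraries and that of AKP libraries cannot be told apart. Against the 2-month Ptch libraries alone, a comparison chosen after seeing the data, no gene was called and 3 of 42 lay lower at an unadjusted p below 0.05 (7.14%), against 1.79% of all tested genes. Without the 4 libraries against their sex label, 16 lay lower at that p, against 6.19% of all tested genes, and none was called. Without NKP 2 the share was 16.7%, against 5.74%.

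**Figure D2:**
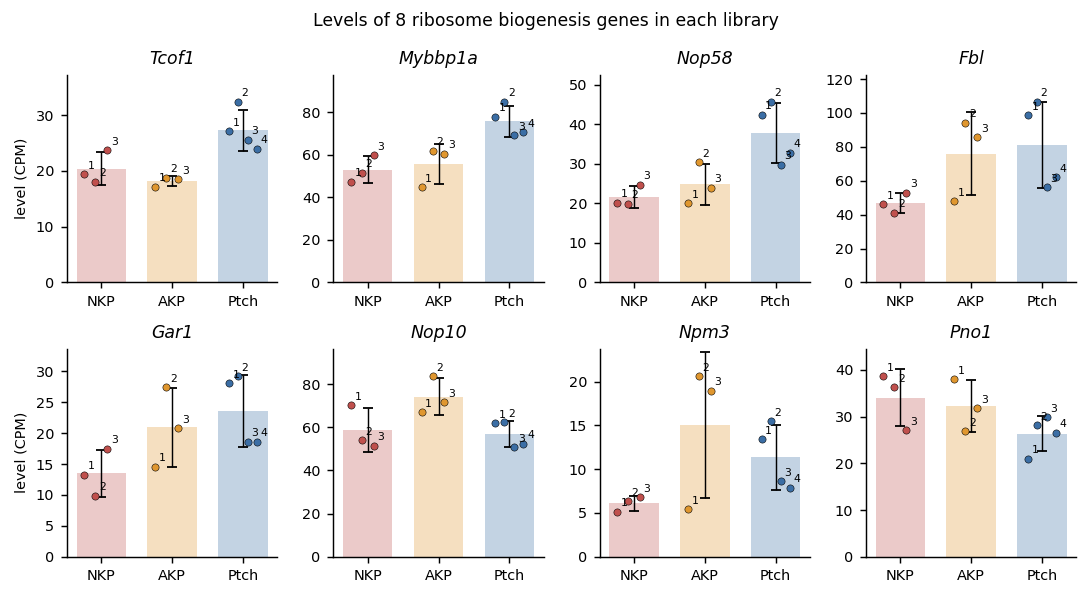
Points give the level of 8 genes in each library in CPM (numbers are the replicate numbers), with bars for the group mean and error bars for 1 SD (NKP n = 3, AKP n = 3, Ptch n = 4). Nop58 and Mybbp1a have NKP libraries all below the Ptch libraries, Npm3 splits AKP 1 from AKP 2 and AKP 3, and Pno1 runs the other way with overlapping groups.

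The libraries labelled AKP were compared with the same Ptch libraries, so the Ptch values enter both comparisons and the results are not independent. Here 32 of 42 genes (76.2%) lay below 0, against 52.3% of all tested genes, with a median of -0.15, against -0.02. Tcof1 alone was called, as lower (2.38% of the 42), against 5.68% of the 15617 genes called in either direction and 2.3% called lower, so the share of members called was no higher than that of all genes. At an unadjusted p below 0.05, 9 genes lay lower (21.4%), against 12.7% of all tested genes, and 1 lay higher, against 12.4%. All AKP libraries lay below all Ptch libraries for 10 genes (23.8%), against 12% of all tested genes, and above them for Nop10 and Wdr74 (4.76%), against 12.9%. DESeq2 called 5 of the 42, namely Polr1a, Tcof1, Mybbp1a and Nop58 lower and Nop10 higher (11.9%), against 13.7% of all genes with an adjusted p.

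The 5 genes of Pol I and its regulators, of which Polr1a and Polr1b are subunits of the enzyme, had the lowest median of the roles, -0.44, and all 5 lay below Ptch in every library. Other Pol I genes did not share this: of 13, 8 lay below 0, with a median of -0.02, 1 lay below Ptch without overlap and 1 above it, Polr1d, which was called higher. Tcof1 fell to 17.2, 18.8 and 18.5 CPM in AKP 1 to 3, against 27.1, 32.4, 25.6 and 24.0 CPM in Ptch 1 to 4. The AKP values were close together and below every Ptch value, for a log2 fold change of -0.59 ± 0.13 (SE, edgeR adjusted p = 0.0300, lower in 3 of 3 AKP libraries). The call was lost without AKP 2 (adjusted p = 0.122), AKP 3 (0.0871), Ptch 1 (0.0793), Ptch 2 (0.0778) or Ptch 3 (0.0501), and without the 4 libraries against their sex label (0.406). It was also lost with the 2-month libraries alone (edgeR adjusted p = 0.287). Of all tested genes, 887 were called in the main fit, 1 each without AKP 2, Ptch 1 or Ptch 2, and 321 without Ptch 3. No gene at all was called without AKP 3, without those 4 libraries or with the 2-month libraries alone. Over all settings the log2 fold change of Tcof1 ran from -0.64 to -0.44. Tcof1 lies on chromosome 18, and its sequence is not shown.

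Polr1a, the largest subunit of Pol I, stood at 15.6, 21.2 and 20.6 CPM in AKP 1 to 3, against 27.6, 26.5, 24.8 and 26.9 CPM in Ptch 1 to 4. The groups did not overlap, but edgeR gave an adjusted p of 0.0702 at a log2 fold change of -0.47 ± 0.14. Over all settings that value ran from -0.545 to -0.201. Mybbp1a stood at 45.0, 62.0 and 60.6 CPM in AKP 1 to 3, again below every Ptch library, at -0.44 ± 0.13 on the log2 scale (edgeR adjusted p = 0.0573). Polr1b, the second largest subunit, differed by -0.30 ± 0.11, and Ddx21, an RNA helicase of Pol I transcription and rRNA processing, by -0.43 ± 0.15. Part of the Mybbp1a transcript, 131 exon bases, overlaps Spns2 on the opposite strand, and the library kit does not mark strand.

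The snoRNP genes did not move as one. Nop58 stood at 20.1, 30.4 and 24.0 CPM in AKP 1 to 3, against 42.4, 45.7, 29.8 and 32.8 CPM in Ptch 1 to 4. AKP 2 lay above Ptch 3, and the log2 fold change was -0.60 ± 0.18 (edgeR adjusted p = 0.0613). Fbl stood at 48.1, 94.2 and 85.6 CPM in AKP 1 to 3. AKP 1 lay below every Ptch library while AKP 2 and AKP 3 lay inside the Ptch range, which left a log2 fold change of -0.09 ± 0.29. Nop56 differed by -0.12 ± 0.13 with overlapping groups. Dkc1 stood at 30.2, 31.0 and 33.6 CPM in AKP 1 to 3, all below the Ptch libraries, at -0.24 ± 0.09.

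Nop10 had the smallest p among the genes higher in AKP. It stood at 67.1, 83.8 and 71.6 CPM in AKP 1 to 3, against 61.9, 62.4, 50.8 and 52.4 CPM in Ptch 1 to 4. The groups did not overlap, at a log2 fold change of 0.38 ± 0.13 (edgeR adjusted p = 0.0807). When trends with transcript length and GC content were removed, the value dropped to 0.07 (adjusted p = 0.729). Nhp2, which binds the same snoRNA particle, stood at 41.5, 68.0 and 59.1 CPM in AKP 1 to 3, against 53.1, 52.2, 44.7 and 42.9 CPM in Ptch 1 to 4. AKP 1 lay below every Ptch library and the other 2 above, and the difference of 0.22 ± 0.15 turned to -0.07 under the same correction. Wdr74, a large subunit factor, was at 38.7, 39.0 and 34.6 CPM in AKP 1 to 3, against 32.5, 33.5, 33.1 and 33.2 CPM in Ptch 1 to 4. Its difference of 0.18 ± 0.09 also turned, to -0.07, under that correction. The correction was not confined to genes higher in AKP. Under it edgeR called 16 of 15617 genes, against 887 without it, and none of the 42. Of the 42 genes, 35 then lay below 0, with a median of -0.16. At an unadjusted p below 0.05, 7 lay lower (16.7%), against 7.73% of all tested genes.

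Among the scaffold genes, Nolc1 lay at 52.1, 57.2 and 57.2 CPM in AKP 1 to 3, below every Ptch library, at -0.28 ± 0.10 on the log2 scale (edgeR adjusted p = 0.0879). Ncl differed by -0.23 ± 0.11 with overlapping groups. Npm3 stood at 5.42, 20.6 and 18.9 CPM in AKP 1 to 3, against 13.4, 15.5, 8.602 and 7.86 CPM in Ptch 1 to 4. AKP 1 was the lowest and AKP 2 and AKP 3 the highest of these 7 libraries, and the log2 fold change of 0.41 ± 0.40 has the largest error of the 42. Of the assembly genes, Heatr1 and Utp20, long scaffold proteins of the small subunit processome, differed by -0.48 ± 0.21 and -0.34 ± 0.17. Rrp1b of the large subunit differed by -0.31 ± 0.17, Rrp9, a protein of the snoRNP needed for small subunit processing, by 0.17 ± 0.13, and Pno1 by 0.29 ± 0.16. None of these 5 passed the test.

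**Figure D3:**
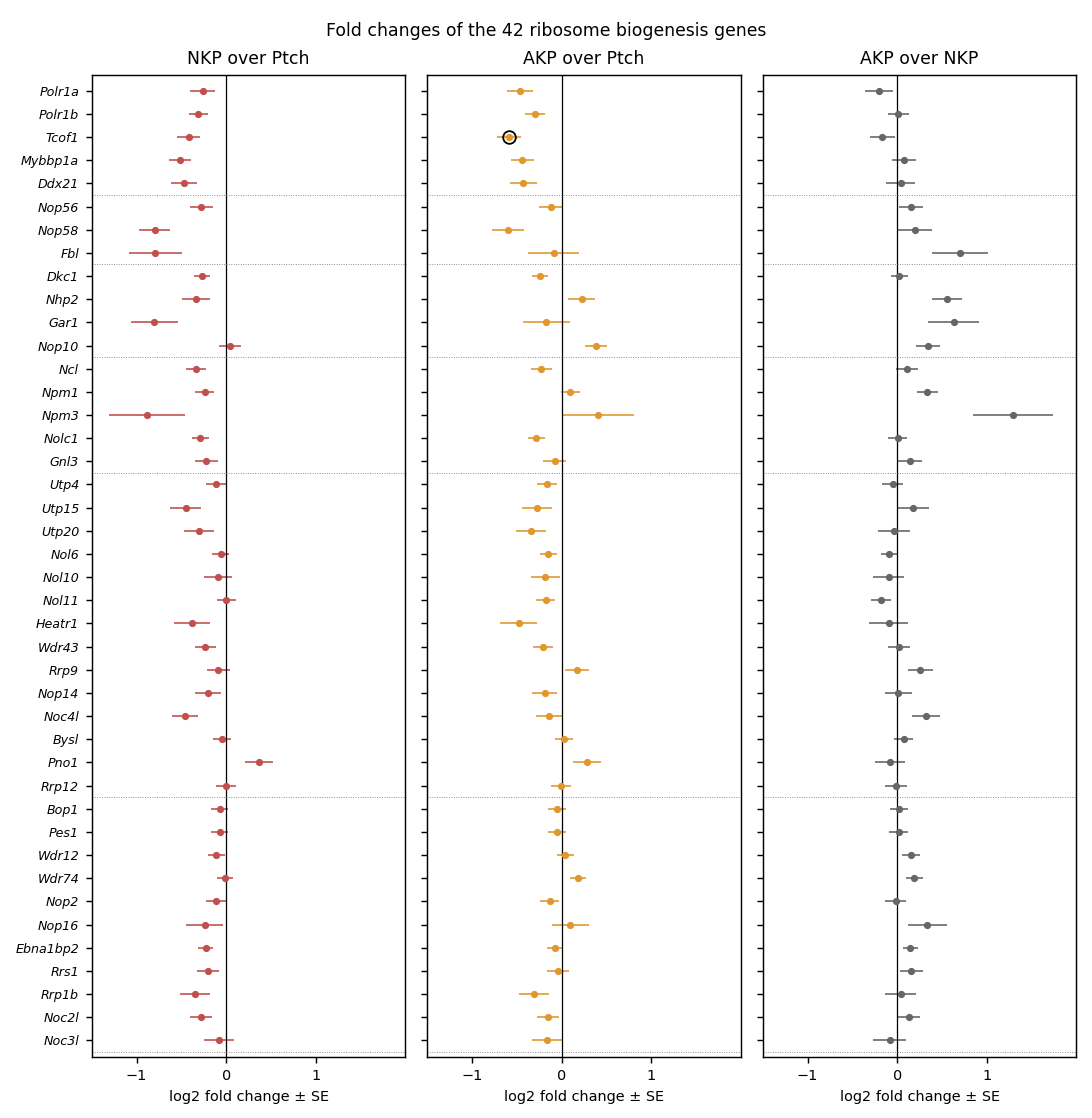
Points give the log2 fold change of each of the 42 genes with bars of 1 SE in 3 comparisons, NKP over Ptch, AKP over Ptch and AKP over NKP, and a ring marks an edgeR adjusted p below 0.05. The ring is on Tcof1 in AKP over Ptch alone; 38 of 42 points lie below 0 in NKP over Ptch, 32 in AKP over Ptch and 12 in AKP over NKP.

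AKP and NKP, which share the floxed allele and differ in the Cre driver, were compared directly. None of the 42 genes passed the test, against 0.0064% (1 gene) of the 15617. DESeq2 called none of the 33 that it gave an adjusted p, against 2.17% of all genes with one. At an unadjusted p below 0.05, 5 lay higher in AKP (11.9%), against 8.82% of all tested genes, and none lay lower, against 8.04%. The median was 0.06, against -0.01 over all tested genes, and 30 of 42 lay above 0. The groups did not overlap for Npm1 and Rrp9, both higher in AKP (4.76%), against 6.69% of all tested genes.

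The box H/ACA snoRNP genes had the largest median, 0.45, carried by Nhp2, Gar1 and Nop10. Nhp2 stood at 41.5, 68.0 and 59.1 CPM in AKP 1 to 3, against 43.3, 33.1 and 38.4 CPM in NKP 1 to 3. AKP 1 lay inside the NKP range, at a log2 fold change of 0.56 ± 0.17 (edgeR adjusted p = 0.228). Nop10 differed by 0.34 ± 0.13, with 67.1, 83.8 and 71.6 CPM in AKP 1 to 3, against 70.2, 54.2 and 51.5 CPM in NKP 1 to 3, and by 0.09 with the length and GC correction. Gar1 stood at 14.5, 27.4 and 20.8 CPM in AKP 1 to 3, against 13.2, 9.89 and 17.5 CPM in NKP 1 to 3, so that AKP 1 again lay inside the NKP range.

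Npm1 encodes nucleophosmin, the main nucleolar chaperone. It stood at 226, 288 and 264 CPM in AKP 1 to 3, against 204, 211 and 201 CPM in NKP 1 to 3. Every AKP library exceeded every NKP library, at 0.34 ± 0.12 on the log2 scale (edgeR adjusted p = 0.228). Npm3 stood at 5.42, 20.6 and 18.9 CPM in AKP 1 to 3, against 5.15, 6.36 and 6.79 CPM in NKP 1 to 3. AKP 1 was inside the NKP range and the other 2 lay well above it, and the log2 fold change was 1.30 ± 0.45 (edgeR adjusted p = 0.236). Fbl differed in the same way, by 0.70 ± 0.31. Without AKP 1, edgeR called 3 of the 42, Nhp2, Npm1 and Npm3, against 8.49% of all genes in that fit. With AKP 3 as the only AKP library, matched to NKP at 4 months, it called Fbl and Npm3, against 2.54%, and the lone AKP library is treated as varying to the same degree as the rest.

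The remaining genes named in each role differed by less. Noc4l differed by 0.32 ± 0.16, Rrp9 by 0.26 ± 0.14, Wdr74 by 0.19 ± 0.09, Nop56 by 0.15 ± 0.13 and Ebna1bp2 by 0.15 ± 0.09. Polr1a and Tcof1, the Pol I genes with the smallest p, had log2 fold changes of -0.20 ± 0.15 and -0.17 ± 0.14. For Wdr74 the sign turned to -0.04 with the length and GC correction.

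The Ptch group itself was not uniform, and its libraries differ in age. The 4-month libraries, Ptch 1 and Ptch 2, exceeded both 2-month libraries, Ptch 3 and Ptch 4, for 30 of the 42 genes (71.4%), against 33.6% of all tested genes, and lay below both for 4 genes (9.52%), against 29%. None of the 42 passed edgeR's test between ages, which called 0.096% of all tested genes. The median log2 fold change was 0.23, against 0.02 over all tested genes and 0.18 over the other ribosome biogenesis genes. The largest differences were those of Npm3 (0.81 ± 0.49), Fbl (0.79 ± 0.27), Gar1 (0.63 ± 0.30), Nop16, a large subunit factor (0.58 ± 0.20), and Nop58 (0.49 ± 0.18). Of these, Fbl averaged 103 CPM at 4 months and 59.3 CPM at 2 months. Within Ptch, age and the Y-linked transcripts cannot be told apart, and the comparison was chosen after seeing the data.

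Summed over the 42 genes, the level was 1742, 1655 and 1859 CPM in NKP 1 to 3, 1762, 2111 and 1977 CPM in AKP 1 to 3, and 2268, 2280, 1905 and 1944 CPM in Ptch 1 to 4. Every NKP library lay below every Ptch library, AKP 1 lay with NKP, and AKP 2 and AKP 3 lay inside the Ptch range. The 5 genes of Pol I and its regulators summed to 130, 134 and 165 CPM in NKP 1 to 3, 126, 152 and 147 CPM in AKP 1 to 3, and 203, 211, 176 and 177 CPM in Ptch 1 to 4. Of the roles that divide the 42 genes, these 5 genes alone summed lower in every NKP and AKP library than in every Ptch library. The statement covers these 5 and not the other Pol I genes. The box H/ACA genes summed to 159, 127 and 138 CPM in NKP 1 to 3, 153, 210 and 185 CPM in AKP 1 to 3, and 179, 181, 151 and 154 CPM in Ptch 1 to 4, with AKP 2 and AKP 3 highest.

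The Myc genes moved in a like order of libraries. Mycn was at 4.33, 4.15 and 13.7 CPM in NKP 1 to 3, 5.18, 42.1 and 30.4 CPM in AKP 1 to 3, and 59.0, 66.6, 23.9 and 23.5 CPM in Ptch 1 to 4. The log2 fold change was -2.52 ± 0.84 in NKP against Ptch (edgeR adjusted p = 0.229) and -0.73 ± 0.76 in AKP against Ptch (edgeR adjusted p = 0.604). Mycl was at 9.57, 7.13 and 13.1 CPM in NKP 1 to 3, 6.82, 33.3 and 29.1 CPM in AKP 1 to 3, and 45.0, 41.5, 21.2 and 19.0 CPM in Ptch 1 to 4. Myc itself was low, between 1.151 and 6.77 CPM in the 10 libraries. Their part in the levels of the 42 genes was not tested. The 8 genes with CACGTG in the promoter window had a median log2 fold change of -0.12 in NKP against Ptch, and the 27 with an entry but no CACGTG one of -0.28. In AKP against Ptch both medians were -0.17. In AKP against NKP the median was -0.03 with CACGTG (5 of 8 below 0) and 0.14 without it (4 of 27 below 0). The differences between the sets were not tested.

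**Figure D4:**
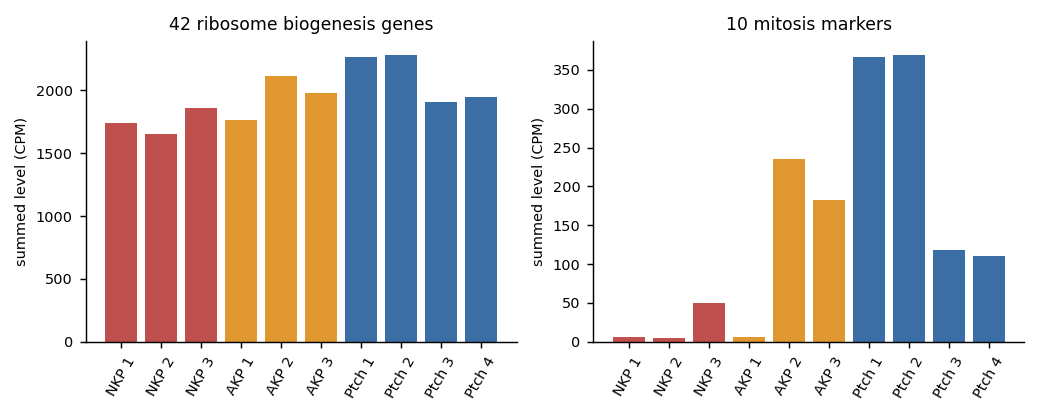
Bars give the summed level in CPM of the 42 ribosome biogenesis genes (left) and of 10 mitosis markers (right) in each of the 10 libraries, coloured by group. NKP 1, NKP 2 and AKP 1 are lowest and Ptch 1 and Ptch 2 highest in both panels, over a range of 1655 to 2280 CPM on the left and 5.09 to 369 CPM on the right.

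Markers of other cell types also differed between the libraries. The 6 oligodendrocyte markers summed to 11890, 8544 and 7383 CPM in NKP 1 to 3, 10710, 8626 and 8566 CPM in AKP 1 to 3, and 5844, 5848, 7184 and 6890 CPM in Ptch 1 to 4, higher in every tumour library than in any Ptch library. The 5 red blood cell markers ran from 780 to 2483 CPM in NKP, from 1740 to 2232 CPM in AKP and from 710 to 814 CPM in Ptch. The 5 endothelial markers summed to 152 to 185 CPM in NKP, 155 to 189 CPM in AKP and 105 to 142 CPM in Ptch. The sum was again higher in every NKP and AKP library, as were Cldn5, Pecam1 and Ly6c1. Flt1 and Kdr overlapped with Ptch in both comparisons, and Kdr differed by -0.20 ± 0.23 on the log2 scale in AKP against Ptch. The 6 microglia markers summed to 106 to 112 CPM in NKP, 106 to 173 CPM in AKP and 128 to 152 CPM in Ptch. The sum was lower in every NKP library than in any Ptch library, as were Cx3cr1 and C1qa, which averaged 33.1 CPM in NKP and 51.3 CPM in Ptch. P2ry12, Aif1, Tmem119 and Csf1r overlapped with Ptch, and P2ry12 differed by 0.00 ± 0.27 on the log2 scale. The part of these cell type markers in the differences of the 42 genes was not tested.

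Another 97 ribosome biogenesis genes, all listed and all tested, gave the setting for the 42. In NKP against Ptch 75 of the 97 (77.3%) lay below 0, against 47.7% of all tested genes, with a median of -0.14, and none was called. At an unadjusted p below 0.05, 19 lay lower (19.6%), against 10.2% of all tested genes, led by Rrp15 (-0.81 ± 0.22), Pelp1 (-0.43 ± 0.13) and Utp14a (-0.45 ± 0.14). In AKP against Ptch the median was -0.06 and 2 of 97 were called (2.06%), 1 in each direction, against 5.68% of all tested genes. Polr1d, a subunit shared by Pol I and Pol III, rose to 126, 144 and 131 CPM in AKP 1 to 3, against 98.0, 103, 103 and 95.6 CPM in Ptch 1 to 4 (log2 fold change 0.42 ± 0.10, edgeR adjusted p = 0.0335). Every AKP library lay above every Ptch library. Nvl, an ATPase of large subunit assembly, fell to 29.7, 28.5 and 28.3 CPM in AKP 1 to 3, against 43.7, 40.1, 40.7 and 42.9 CPM in Ptch 1 to 4 (log2 fold change -0.54 ± 0.13, edgeR adjusted p = 0.0349). Leaving out AKP 2, AKP 3 or any 1 of the 4 Ptch libraries left none of the 97 called. Those fits called at most 2.07% of all tested genes. The third by p was Pdcd11, a small subunit scaffold, at -0.45 ± 0.14 and not called. In AKP against NKP none was called, and Fcf1 (0.48 ± 0.14), Rsl24d1 (0.33 ± 0.10) and Esf1 (-0.33 ± 0.11) had the smallest p.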

How the data were processed

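Per the labels' protocols, the 10 libraries hold poly-A RNA prepared by a TruSeq method without strand marking. The deposited table holds RSEM expected counts as whole numbers, per the submitters' processing notes, which name Trim Galore, STAR, RSEM and GRCm38 (versions not given in the sources used here). Whole values needed no rounding. RSEM estimates how reads split between near-identical copies, so Npm1, which has many processed copies, is uncertain. Exons of 21 members overlap another gene, 19 of them on the opposite strand.

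Members and lists were chosen with earlier results of these data known. Genes were filtered by edgeR's filterByExpr, scaled by TMM and tested over all 15617 genes in 1 fit of the 3 groups by the quasi-likelihood F test (edgeR 4.0.16, R 4.3.3, robust dispersion) with Benjamini-Hochberg adjustment at 0.05. The standard error (SE) is the log2 fold change over the square root of F. Named in each comparison were the 2 members of each role with the smallest p, any called, and those of opposite sign. Alternatives were DESeq2 1.42.0, RLE and upper quartile scaling, other filters, age and sex label as covariates, age-matched libraries, a replicate block, each library left out, the 4 libraries against their sex label left out, and lowess corrections for transcript length and GC content (span 0.3). No 2 libraries agreed within sampling noise (chi-square per degree of freedom at least 3.21). Some of the closest pairs crossed groups. The value was 3.21 for Ptch 3 with Ptch 4, 3.42 for NKP 1 with AKP 1 and 3.70 for NKP 3 with Ptch 4. Pairs within NKP ran from 14.3 to 16.0 and pairs within AKP from 8.29 to 35.8. Simulated counts for 15617 genes were drawn independently for each library, with a spread set by the trend over genes. On these the fit recovered 74 of 100 genes changed 2-fold in NKP against Ptch, 72 of 100 in AKP against Ptch and 66 of 100 in AKP against NKP.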

Additional observations from a re-analysis of the deposited data

Results flagged for a closer look

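Dkc1 was flagged because 1 of the 4 Ptch libraries stood far from the others. Ptch 4 was at 40.1 CPM, and Ptch 1, Ptch 2 and Ptch 3 lay between 36.1 and 36.6 CPM, so that the gap was 0.861 of the group's range, above Dixon's critical value for 4 libraries. This was 1 of 27 values checked, and chance flags about 1 in 20.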

How the results depend on the processing

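In NKP against Ptch the count of called members, 0, became 3 with DESeq2 (7.14%, against 2.71% of all genes), 6 with age as a covariate (14.3%, against 5.97%) and 14 with age-matched libraries (33.3%, against 15.6%). It was 0 with each library left out, against 0% of all genes each time, and the median log2 fold change then ran from -0.29 to -0.21. In AKP against Ptch the count, 1, became 5 with DESeq2 (11.9%, against 13.7%), 3 without a filter on low counts (7.14%, against 4.08%) and 2 with only the 2 groups compared (4.76%, against 7.87%). It became 0 with sex label as a covariate, with age-matched libraries, with the replicate block, without the 4 libraries against their sex label, with the length and GC correction, and with the Ptch libraries of 2 months only, a setting chosen after seeing the data. With each library left out it ran from 0 to 2. It was 2 without NKP 1 or NKP 3, and 0 without AKP 2, AKP 3, Ptch 1, Ptch 2 or Ptch 3. In AKP against NKP the count, 0, became 2 with age-matched libraries (4.76%, against 2.54%) and ran from 0 to 3 with each library left out, being 3 without AKP 1. The 3 called without AKP 1 were 7.14% of the 42, against 8.49% of all genes. The causes were not tested.

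Whether the replicate numbers pair the libraries was not settled. The correlations of same-numbered deviations ran from -0.457 to 0.469, and they were not set against those of differently numbered libraries. With the replicate block, over 9 libraries, 0 members were called in all 3 comparisons, and so were 0 of all 15529 genes tested.

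Signs reversed for 6 named members, none of them called in that comparison. In NKP against Ptch, Nop10 (0.0430) was -0.0193 with age as a covariate, -0.0849 with age-matched libraries and -0.0288 with the length and GC correction, and it ran from -0.105 to 0.130 with each library left out. Nol11 (0.0034) was -0.0025 with at least 10 counts in every library, -0.0079 with age, -0.0039 with sex label, -0.0325 with age-matched libraries, -0.0257 with the replicate block and -0.0284 with the length and GC correction, and it ran from -0.0632 to 0.0804 with each library left out. Rrp12 (0.0023) was -0.0026 with at least 10 counts, -0.0895 without those 4 libraries and -0.0601 with the 2-month Ptch libraries, and it ran from -0.126 to 0.0964 with each library left out. In AKP against Ptch, Nop56 (-0.123) was 0.0083 with age-matched libraries and 0.0143 with the 2-month Ptch libraries, and with the length and GC correction Wdr74 (0.179) was -0.0669 and Nhp2 (0.222) -0.0714. In AKP against NKP, Wdr74 (0.190) was -0.0379 with that correction.

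Over 23 alternatives, 330 of 368 values of named members kept direction and side of the threshold in NKP against Ptch, 347 of 368 in AKP against Ptch and 270 of 276 in AKP against NKP. All but 1 of these members were not called in the main fit, so keeping their side meant staying uncalled. Tcof1 in AKP against Ptch, the 1 that was called, lost its call in 11 of the 23 alternatives. With 3 or 4 libraries a group, 66 to 74 of 100 simulated 2-fold changes were recovered, and most differences described here were smaller than 2-fold. The simulation lacked differences shared by many genes within a group, such as AKP 1 against AKP 2 and AKP 3. It therefore does not measure recovery in these data. The mitosis marker Mki67 was not called in NKP against Ptch at a log2 fold change of -3.58 ± 1.40 (edgeR adjusted p = 0.265).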
